A study of Homo sapiens with 9 samples.

Results

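The 10 imprinted genes described here were IGF2, H19, CDKN1C, PEG10, PEG3, MEST, SNRPN, DLK1, MEG3 and PLAGL1, taken by name. No cut on a measured value was used, but earlier results of these data were known when the genes were chosen. Every non-control probe that carries one of these names was used, which gave 17 of the 50599 probes on the array. Imprinted genes are transcribed mainly from the copy inherited from one parent, and which copy is used depends on control regions that carry DNA methylation from the germ line on the copy of a single parent. The mark does not always lie on the silent copy: at IGF2 and H19 it lies on the paternal copy, which expresses IGF2 and not H19. UHRF1 binds DNA that is methylated on a single strand after replication and brings in the methyltransferase DNMT1, so that methylation is copied to the new strand. IGF2, a fetal growth factor, and H19, a long non-coding RNA, are the classic pair, expressed from opposite parental copies, and IGF2 often gains expression in colorectal tumours.

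Expression was measured in RKO, a colorectal cancer cell line, on 9 one-colour Agilent arrays in 5 groups. In siCONT and siUHRF1, cells had a control siRNA or an siRNA against UHRF1 for 72 h and then ethanol as the mock drug for 24 h, with 2 arrays each. In siCONT + TSA and siUHRF1 + TSA, also with 2 arrays each, the last 24 h were spent in 300 nM trichostatin A (TSA), an inhibitor of histone deacetylases. The 5-aza-dC group was a single array of cells without siRNA that had 1 µM of the DNA methyltransferase inhibitor 5-aza-2'-deoxycytidine for 72 h. All 5 groups are 1 cell line, so genotype is shared. The siUHRF1 arrays differ in the siRNA, with number 1 on replicate 1 and number 2 on replicate 2. Nothing in the labels says that the arrays of a group came from separate cultures, so p-values measure only the spread between these arrays.

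As a check of the depletion, the log2 difference of UHRF1 from siCONT was -2.47 in siUHRF1 (limma adjusted p = 0.00238) and -3.17 in siUHRF1 + TSA. The 8 siRNA arrays shared 1 slide and 1 scan, on which the row goes with TSA and the column with the siRNA, so position and treatment cannot be told apart. The array with 5-aza-dC came from a different slide and scan, and its 75th percentile signal was 822 against 245 to 338 on the other arrays. Slide and drug cannot be told apart there, and its only reference is cells with a control siRNA. Of the 8 colorectal epithelial markers examined, 3 genes (KRT8, KRT18 and CDX2) were above background on all 9 arrays, whereas CDH1, VIL1 and LGALS4 were above it on no siRNA array. Of the 8 markers of other cell types, 3 were also above background on all 9 arrays. Among them CD3E, PECAM1 and COL3A1 were above it on no siRNA array, so the 2 lists did not differ in these counts. In the comparison of siUHRF1 + TSA with siCONT, 5 of the 7 tested probes for epithelial markers and 3 of the 5 for markers of other cell types were higher. The share over all tested probes was 15%, and the part of these markers in the results below was not tested. In bulk RNA, fewer cells of a type and less RNA per cell cannot be told apart.

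The probes are 60 bases long and were designed on transcripts, with positions given here on hg19. IGF2, H19 and CDKN1C lie in the same cluster of imprinted genes on chromosome 11, all on the minus strand. H19 lies 133 kb from the nearest IGF2 probe, and CDKN1C lies 750 kb from IGF2 on the other side. A shared cluster does not mean a shared control region. IGF2 has 2 probes: A_23_P421379 in the coding part, whose ends lie 353 bases apart across a splice junction (chr11:2154402-2154754), and A_23_P150609 in the 3′ untranslated region, 4.3 kb further along the gene (chr11:2150394-2150453). The 2 H19 probes lie 0.29 kb apart (chr11:2016961-2017020 and chr11:2016674-2016733). These sequences are shown because the IGF2 probes gave unlike readings and the H19 probes the same one. For the untranslated IGF2 probe only the first 30 bases are given.
IGF2 A_23_P421379: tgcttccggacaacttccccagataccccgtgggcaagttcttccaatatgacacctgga
IGF2 A_23_P150609: ctcaactcagctcctttaacgctaatattt
H19 A_19_P00323082: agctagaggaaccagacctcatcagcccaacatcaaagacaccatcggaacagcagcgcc
H19 A_24_P52697: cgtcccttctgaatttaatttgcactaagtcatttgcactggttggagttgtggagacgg

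MEG3 and DLK1 are neighbours in the imprinted domain of chromosome 14, 95 kb apart between their nearest probes and both on the plus strand. The 4 MEG3 probes are shown because they span 31.31 kb of this long non-coding RNA and did not move together. The first lies at chr14:101295974-101296033, and the others lie 1.39 kb, 29.1 kb and 31.31 kb downstream of it, in the order printed. The last holds the polyadenylation hexamer AATAAA, in capitals, near its end. Of the 17 probes 1 holds this hexamer on the transcript's strand and none on the other strand, against 7.88% of all 50599 probes on the transcript's strand.
MEG3 A_32_P40547: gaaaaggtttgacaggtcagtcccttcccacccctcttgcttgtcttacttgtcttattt
MEG3 A_19_P00316675: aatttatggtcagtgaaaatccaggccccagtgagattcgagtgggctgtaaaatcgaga
MEG3 A_33_P3309501: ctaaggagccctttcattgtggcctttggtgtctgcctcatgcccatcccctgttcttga
MEG3 A_33_P3255434: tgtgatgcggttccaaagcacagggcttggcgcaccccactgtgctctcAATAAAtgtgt

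Promoter windows of 300 bases, 250 before and 50 after a start site, were matched in RefSeq on GRCh38.p14 for 5 of the 10 genes (PLAGL1, MEST, H19, MEG3 and SNRPN), with 18 start sites among them. CG, the pair of letters at which DNA methylation sits, occurs at least once in 96% of all 35116 windows, with a median of 14 per window. The count in the members' windows ran from 2 to 39. PLAGL1 had 39 in its richest window, more than in 91.3% of all windows, whereas MEG3 had 19 and SNRPN 18. The richest windows of these 3 genes are shown because their probes responded in unlike ways, and methylation itself was not measured on these arrays. The 250 bases upstream of the start are printed 5′ to 3′ on the gene's strand, with CG in capitals.
PLAGL1, chr6:144008260-144008509, minus strand: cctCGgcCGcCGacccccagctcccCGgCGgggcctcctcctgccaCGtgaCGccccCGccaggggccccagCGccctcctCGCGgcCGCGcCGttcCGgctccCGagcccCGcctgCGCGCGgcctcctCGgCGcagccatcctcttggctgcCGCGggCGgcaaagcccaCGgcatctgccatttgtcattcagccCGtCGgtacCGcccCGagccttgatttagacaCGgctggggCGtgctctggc
MEG3, chr14:100825858-100826107, plus strand: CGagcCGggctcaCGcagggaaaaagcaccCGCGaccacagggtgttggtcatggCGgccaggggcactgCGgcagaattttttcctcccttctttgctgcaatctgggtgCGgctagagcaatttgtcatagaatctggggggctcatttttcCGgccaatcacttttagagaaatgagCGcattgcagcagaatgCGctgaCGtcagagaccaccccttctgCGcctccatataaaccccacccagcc
SNRPN, chr15:24954737-24954986, plus strand: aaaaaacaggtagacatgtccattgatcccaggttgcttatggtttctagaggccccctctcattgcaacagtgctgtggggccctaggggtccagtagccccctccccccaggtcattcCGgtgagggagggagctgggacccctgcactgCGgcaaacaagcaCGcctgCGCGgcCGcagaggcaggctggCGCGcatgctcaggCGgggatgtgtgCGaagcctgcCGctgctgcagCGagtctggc

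On the 8 siRNA arrays most of these genes were dim. Of the 17 probes, 7 were well above background on all 9 arrays (both H19 probes, 1 each for CDKN1C, DLK1 and MEST, and 2 for MEG3). A further 3 (PEG10, 1 for PEG3, and SNRPN) were above it on the 5-aza-dC array alone, and 3 (the coding IGF2 probe, 1 for DLK1 and 1 for MEG3) were never above it. Signals below are the processed fluorescence of each array on a linear scale, without scaling between arrays. Differences are on the log2 scale after each array was set relative to its own 75th percentile, and a probe was called at a limma adjusted p below 0.05. Over the siRNA arrays 10 of the 17 probes, for 7 of the 10 genes, were bright enough in at least 1 group to be tested.

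IGF2 showed the widest range of any member, 7.41 on the log2 scale over the siRNA arrays. Its untranslated-region probe read 10.4 and 9.80 in siCONT and 12.1 and 13.0 in siCONT + TSA, all not well above background. It read 82.6 and 180 in siUHRF1, 1524 and 1608 in siUHRF1 + TSA, and 7475 on the 5-aza-dC array. The groups with UHRF1 depletion did not overlap either control, and siUHRF1 + TSA did not overlap siUHRF1. The lowest signal called above background on the siRNA arrays was 12.9 to 15.1, so the controls sat at the detection limit.

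Against siCONT, IGF2 was at least 7.96-fold higher in siUHRF1 (log2 difference 3.48, SE 0.41, adjusted p = 0.0288) and at least 113-fold higher in siUHRF1 + TSA (7.31, SE 0.41, adjusted p = 0.000285). Under TSA, depletion raised it at least 99.5-fold (adjusted p = 0.000579). In depleted cells, where both groups were measured, TSA raised it 14.1-fold (3.82, SE 0.41, adjusted p = 0.00487), with a log2 difference of 3.12 without siUHRF1 replicate 1 and 4.53 without replicate 2. TSA without depletion left it below background in both groups. The folds written as at least were computed with the dim arrays set at the lowest signal called above background or at the probe's own signal where higher.

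The call in siUHRF1 alone was lost without either siCONT array (adjusted p = 0.138 and 0.157), either siCONT + TSA array (0.0620 each) or either siUHRF1 + TSA array (0.0840 each), and under a normexp background correction, which put the difference at 1.35. The lower limit was 13.0-fold without siUHRF1 replicate 1 and 4.89-fold without replicate 2. After normexp correction the difference in siUHRF1 + TSA against siCONT was 4.64, still called. The 2 siRNAs differed by 1.41 on the log2 scale for IGF2 without TSA, against a median difference of 0.26 between these arrays over all tested probes, and by 0.12 with TSA.

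The coding IGF2 probe printed above showed none of this. It read 2.73 to 3.27 across all 8 siRNA arrays and 17.2 with 5-aza-dC, where the lowest signal called above background was 28.0. It was never well above background, so the arrays hold a rise at the end of the IGF2 transcript and no measured level in its coding part. Why the probes differ was not tested. The pattern of the untranslated-region probe was uncommon on the array: of 26104 probes below background on all 4 siCONT arrays, with and without TSA, 124 (0.475%) were above it on all 4 siUHRF1 arrays and on the 5-aza-dC array. This pattern was taken from the IGF2 probe itself, so the share is a description and not a test.

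**Figure D1:**
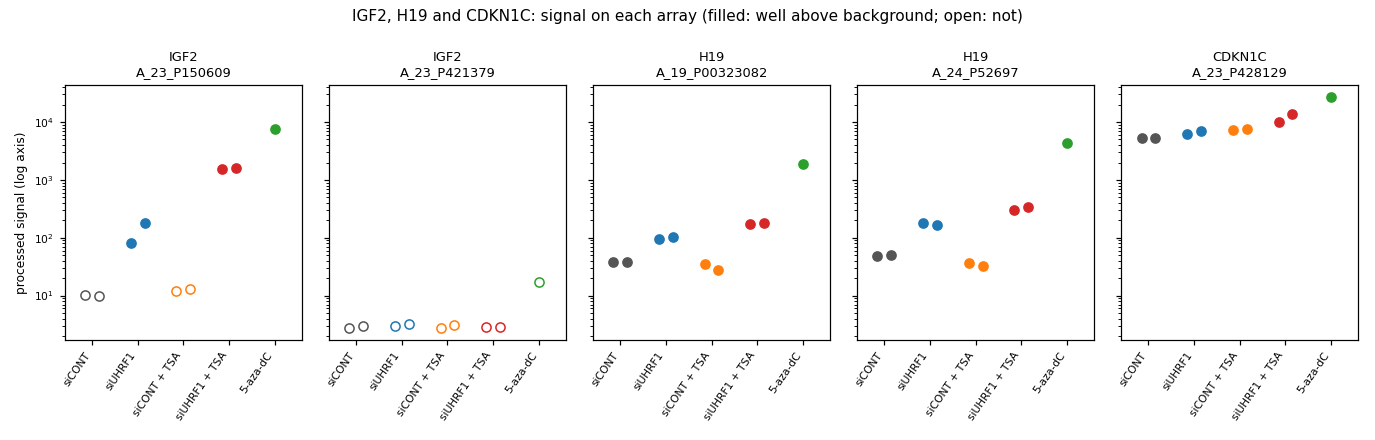
Processed signal (log axis) of the 5 probes for IGF2, H19 and CDKN1C on each of the 9 arrays, by group, with filled points well above background and open points not. The IGF2 probe A_23_P150609 went from 9.80 to 13.0 in the control groups to 1524 and 1608 in siUHRF1 + TSA, the H19 probes rose less, and the coding IGF2 probe was below the background call on all 9 arrays.

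H19, which lies next to IGF2 and is the host of a microRNA and a restraint on growth, was detected in every group. Probe A_24_P52697 read 48.2 and 51.0 in siCONT, 35.9 and 31.9 in siCONT + TSA, 181 and 167 in siUHRF1, 297 and 343 in siUHRF1 + TSA, and 4404 on the 5-aza-dC array. Probe A_19_P00323082 read 37.8 and 38.3 in siCONT, 35.2 and 27.4 in siCONT + TSA, 95.4 and 101 in siUHRF1, 172 and 179 in siUHRF1 + TSA, and 1876 on the 5-aza-dC array. Both probes gave the same order of groups, and depleted arrays lay above control arrays with no overlap.

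H19 probe A_24_P52697 rose by 1.70 on the log2 scale in siUHRF1 (SE 0.14, adjusted p = 0.00755), by 2.72 in siUHRF1 + TSA (SE 0.14, adjusted p = 0.000181), and by 3.08 when depletion was compared under TSA (adjusted p = 0.000155). The first of these calls was lost without siCONT replicate 1 (adjusted p = 0.0650) or 2 (0.0562), and after normexp correction, where the difference was 0.96. The second probe gave 1.26 in siUHRF1, which missed the threshold (SE 0.18, adjusted p = 0.0597), and rose by 2.23 and by 2.35 in the other 2 comparisons (adjusted p = 0.00103 and 0.00160). After normexp correction these were 1.31, still called, and 0.89, not called (adjusted p = 0.105), and those of A_24_P52697 were 1.75 and 1.55, both called. TSA in depleted cells raised H19 by 1.02 and 0.97 (adjusted p = 0.00864 and 0.0213), which is 2.02-fold and 1.96-fold. The call of the second probe there was lost without siCONT replicate 1 or 2, siUHRF1 replicate 1, or siUHRF1 + TSA replicate 1 or 2 (adjusted p 0.0523 to 0.0771). For TSA without depletion the differences were -0.37 and -0.11 (adjusted p = 0.137 and 0.720). IGF2, at its untranslated-region probe only, and H19 were thus higher in the same arrays. These signals do not tell the parental copies apart, so which copy was transcribed was not measured.

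CDKN1C, the inhibitor of cyclin-dependent kinases p57, lies in the same chromosome 11 cluster and was well above background on every array. It read 5205 and 5245 in siCONT, 6246 and 6955 in siUHRF1, 7271 and 7495 in siCONT + TSA, 10227 and 13852 in siUHRF1 + TSA, and 27514 on the 5-aza-dC array. Every treated array was above both siCONT arrays in unscaled signal. Relative to each array's 75th percentile, CDKN1C was at 1849% in siUHRF1 replicate 1, level with 1844% and 1842% in siCONT. It rose by 1.22 on the log2 scale in siUHRF1 + TSA against siCONT (SE 0.20, adjusted p = 0.00959) and by 0.99 in siUHRF1 + TSA against siUHRF1 (adjusted p = 0.0265). The differences were 0.22 for depletion alone (adjusted p = 0.848) and 0.68 for TSA alone (adjusted p = 0.0844), and 0.54 for depletion under TSA (adjusted p = 0.245). The first call was lost without siCONT replicate 1 (adjusted p = 0.0617) or 2 (0.0626), and the second without any of 6 arrays (siCONT replicate 1 or 2, siCONT + TSA replicate 1 or 2, siUHRF1 replicate 1, siUHRF1 + TSA replicate 2; adjusted p 0.0599 to 0.0797).

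**Figure D2:**
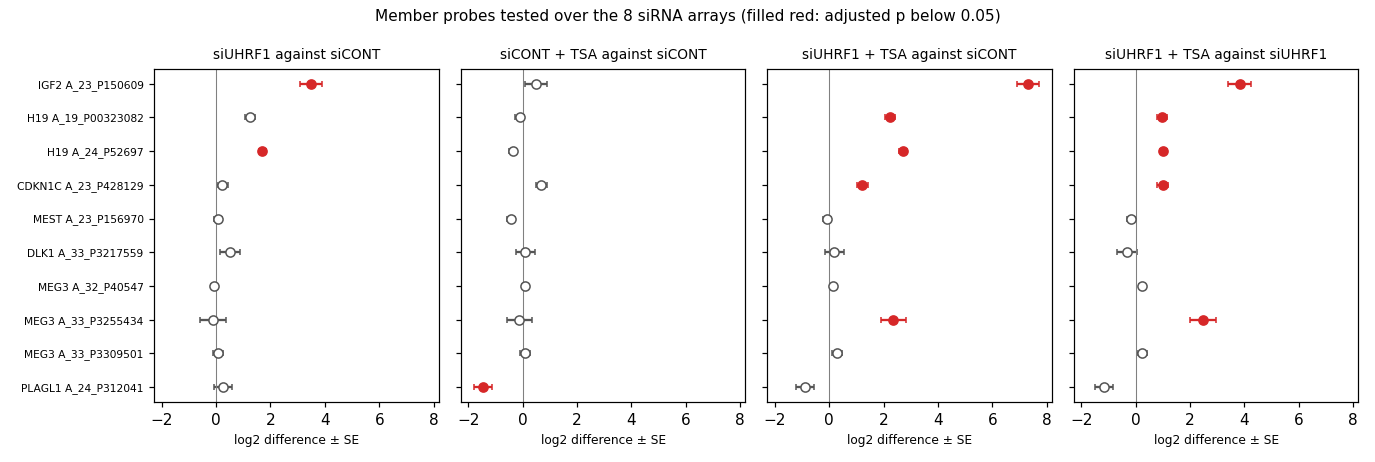
Log2 difference with its standard error (x axis) for the 10 member probes tested over the 8 siRNA arrays, in 4 comparisons, with filled red points called at an adjusted p below 0.05. IGF2 A_23_P150609 and H19 A_24_P52697 were called for depletion alone, PLAGL1 for TSA alone, and 5 probes of 4 genes for the combination.

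MEG3, a long non-coding RNA from the maternal copy of the chromosome 14 domain, was called on the siRNA arrays at its last probe and at neither of its other 2 tested probes. That probe, A_33_P3255434, read 9.32 and 26.8 in siCONT, 16.2 and 15.4 in siUHRF1, 14.5 and 11.4 in siCONT + TSA, 72.9 and 87.2 in siUHRF1 + TSA, and 352 on the 5-aza-dC array. Outside siUHRF1 + TSA and 5-aza-dC, only 1 siCONT array was above background. It rose by 2.36 on the log2 scale in siUHRF1 + TSA against siCONT (SE 0.46, adjusted p = 0.0161), and was at least 4.85-fold higher than in siCONT + TSA (adjusted p = 0.0455) and at least 5.57-fold higher than in siUHRF1 (adjusted p = 0.0213). The difference from siCONT was 1.61 without siCONT replicate 1 and 3.12 without replicate 2, and its call was lost without either siUHRF1 + TSA array (adjusted p = 0.0551 and 0.0738). The call against siCONT + TSA was lost without any one of 6 arrays, namely those of siUHRF1, siCONT + TSA and siUHRF1 + TSA (adjusted p 0.0732 to 0.236). After normexp correction the difference was 0.88 against siCONT (adjusted p = 0.0521) and 0.36 against siCONT + TSA. The call against siUHRF1 was lost without siUHRF1 replicate 1 (0.0820) or either siUHRF1 + TSA array (0.0723 and 0.0814).

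The probe at the start of the MEG3 series, A_32_P40547, stayed between 370 and 428 on all 8 siRNA arrays, with a difference of 0.14 in siUHRF1 + TSA against siCONT (SE 0.11, adjusted p = 0.401). The probe 29.1 kb downstream of it, A_33_P3309501, which was designed on a cDNA and not on the curated transcript, lay between 74.5 and 112 there (0.30, SE 0.19, adjusted p = 0.295). The second probe, A_19_P00316675, was above background on no array. The 2 probes 2.21 kb apart at the end of the series therefore gave differences of 0.30 and 2.36.

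**Figure D3:**
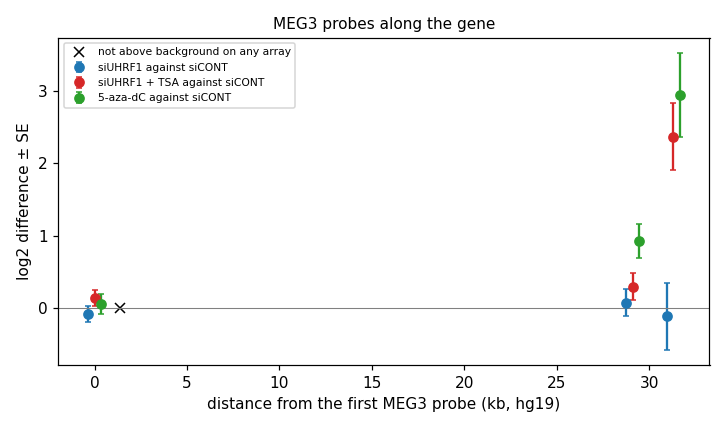
Log2 difference with its standard error (y axis) of the MEG3 probes against their distance from the first probe (x axis, kb on hg19), for 3 comparisons with siCONT, with points moved sideways by up to 0.35 kb for legibility. The probe at 31.31 kb rose in siUHRF1 + TSA and 5-aza-dC (2.36 and 2.94), the probe at 29.1 kb was higher with 5-aza-dC (0.92), and the cross marks the probe above background on no array.

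DLK1, a Notch-like membrane protein made from the paternal copy next to MEG3, gave no call. Its probe A_33_P3217559 read 33.9 and 33.8 in siCONT, 71.0 and 38.4 in siUHRF1, 44.0 and 23.2 in siCONT + TSA, 43.4 and 33.1 in siUHRF1 + TSA, and 94.8 on the 5-aza-dC array. The difference was 0.51 in siUHRF1 (SE 0.35, adjusted p = 0.783) and 0.19 in siUHRF1 + TSA (adjusted p = 0.731). The other DLK1 probe was above background on no array, with 3.48 to 6.68 on the siRNA arrays.

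PLAGL1, a zinc finger transcription factor that restrains growth, was the only member called lower in the fit over all siRNA arrays. It read 63.2 and 70.6 in siCONT, 127 and 58.3 in siUHRF1, 16.3 and 27.9 in siCONT + TSA, 33.0 and 37.6 in siUHRF1 + TSA, and 37.6 on the 5-aza-dC array. All 4 arrays with TSA lay below all 4 without it, and how many of all probes do so was not counted. The 16.3 in siCONT + TSA and the reading on the 5-aza-dC array were not well above background. The log2 difference in siCONT + TSA against siCONT was -1.47 (SE 0.33, adjusted p = 0.0436), and in siUHRF1 + TSA it was -0.90 against siCONT (adjusted p = 0.102) and -1.15 against siUHRF1 (adjusted p = 0.0656). The TSA call was lost without any 1 array of siCONT, siCONT + TSA or siUHRF1 + TSA (adjusted p 0.0670 to 0.209) and under quantile or spike-in scaling (0.0555 and 0.0806), and the difference was -0.04 after normexp correction.

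MEST, a hydrolase-like protein made from the paternal copy, was well expressed and gave no call among the siRNA arrays. It read 499 and 562 in siCONT, 631 and 584 in siUHRF1, 328 and 366 in siCONT + TSA, 437 and 541 in siUHRF1 + TSA, and 2698 on the 5-aza-dC array. Both siCONT + TSA arrays were the lowest (-0.43, SE 0.15, adjusted p = 0.115), and MEST was called lower there when only these arrays and siCONT were fitted (adjusted p = 0.0305).

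PEG10 and PEG3, both made from the paternal copy, and SNRPN, which encodes a small nuclear ribonucleoprotein and starts at the imprinting centre of the Prader-Willi domain, were at or near background on the siRNA arrays. PEG10 read 3.11 to 3.54 on those arrays and 481 with 5-aza-dC. PEG3 probe A_23_P407583 read 2.96 to 3.43 and then 175, and SNRPN read 3.02 to 9.11 and then 278. In SNRPN the 2 siUHRF1 + TSA arrays held the highest of the siRNA values, 7.71 and 9.11, still not well above background. The second PEG3 probe was above background on 1 siCONT and 1 siUHRF1 array (25.8 and 23.7) and read 3.47 to 14.3 on the other 6 siRNA arrays. It read 21.8 on the 5-aza-dC array, not well above background, so the PEG3 probes did not give the same picture.

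**Figure D4:**
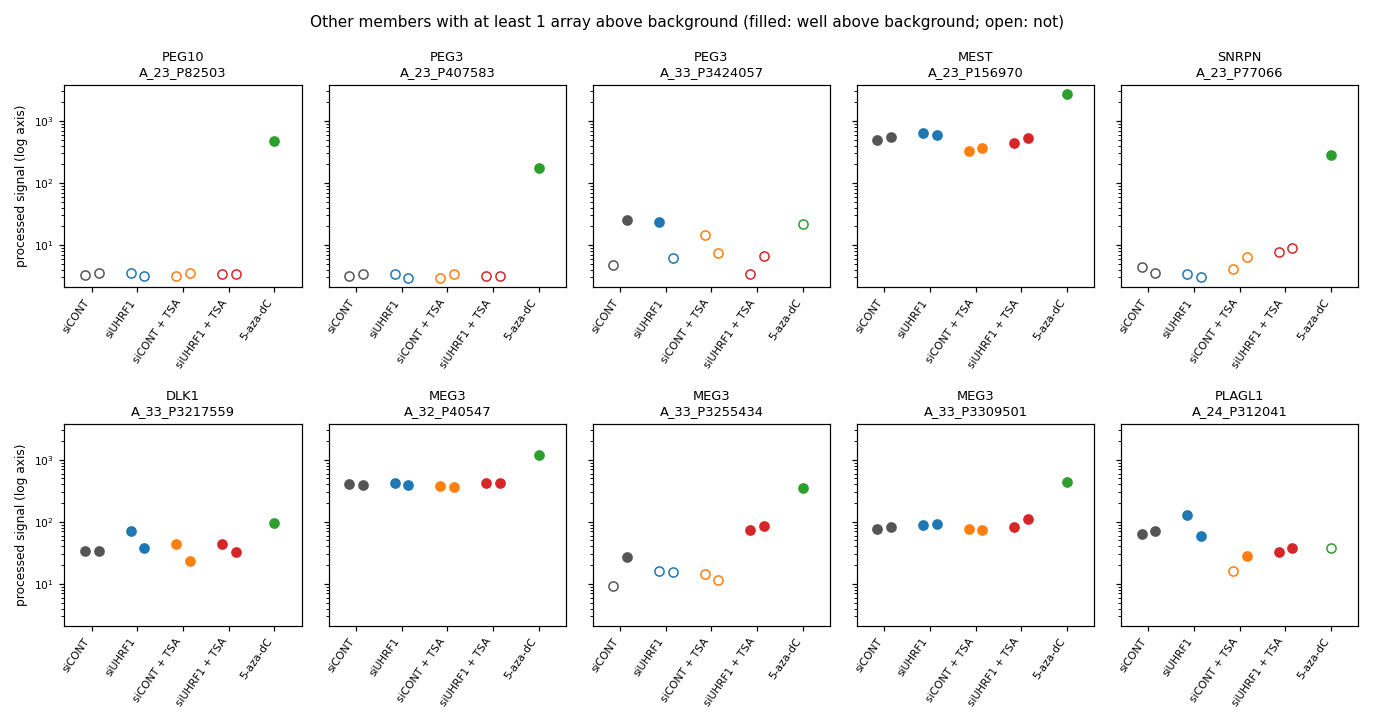
Processed signal (log axis) of the other 10 member probes that were well above background on at least 1 array, by group, with filled points above background and open points not. PEG10, PEG3 A_23_P407583 and SNRPN were filled on the 5-aza-dC array alone, at 481, 175 and 278, and PLAGL1 was lower on the arrays with TSA.

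As counts, depletion alone called 2 of 10 tested member probes higher and none lower, where 0.502% of all 23708 tested probes were called higher and 0.038% lower. TSA alone called none higher and 1 lower, against 6.47% and 3.94% of all probes. The combination against siCONT called 5 higher, for 4 genes, and none lower, against 15% and 8.24%. Depletion under TSA called 4 higher, for 3 genes, and none lower, against 2.92% and 0.557%. TSA in depleted cells, a comparison added after the data were seen, called 5 higher and none lower, against 9.92% and 5.5%. The median log2 difference of the 10 tested probes was 0.24, -0.01, 0.76, 0.55 and 0.60 in these comparisons, and that of all tested probes lay between -0.01 and 0.07. These comparisons share arrays, so their counts are not separate evidence. The IGF2 and last MEG3 probes entered the test only through groups where they were high, which tilts these counts upward. The members were also chosen with earlier results of these data known. Among the 7 member probes above background on all arrays, which leave out PLAGL1 too, the calls were 1, 0, 3, 2 and 3, all higher, against 0.0675%, 8.45%, 14.6%, 1.02% and 10.3% of 20728 such probes. The split of all calls moved with the scaling: for TSA alone it was 1534 higher and 934 lower, or 304 and 580 under scaling by the spike-in probes, and for the combination 3548 and 1954, or 1658 and 1721. For TSA in depleted cells it was 2351 and 1305, or 870 and 976.

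Whether depletion acted differently with TSA was tested by the difference between its effects. None of the 10 probes was called in limma, where 0.35% of all probes were called higher and 0.0211% lower, and 4 had an unadjusted p below 0.05. IGF2 gave 3.33 (SE 0.58, adjusted p = 0.154), the H19 probes 1.39 and 1.09 (adjusted p = 0.0655 and 0.403) and the last MEG3 probe 2.60 (adjusted p = 0.473). For IGF2 the controls were below background, so the estimate rests partly on values with only an upper bound. The IGF2 estimate was 2.63 without siUHRF1 replicate 1 and 4.03 without replicate 2, and the MEG3 estimate 3.36 without siCONT replicate 1. Each of these fits leaves 1 array in a group and drops the spread within it. For IGF2 this is the spread between the 2 siRNAs, so these fits do not settle whether the effects differ.

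On the 5-aza-dC array 13 member probes for all 10 genes were tested, with the single array assumed to vary like the other groups. Of these, 10 probes for 8 genes were called higher than siCONT and 1 lower, against 24.1% of all 27154 probes called higher and 24.8% lower. PEG10, PEG3 A_23_P407583 and SNRPN entered the test through that array alone and could only come out higher. Of the 7 member probes above background on all 9 arrays 5 were called higher and none lower, against 19.2% and 31.5% of 20477 such probes. IGF2 was at least 182-fold higher, PEG10 at least 11.7-fold, SNRPN at least 6.77-fold and PEG3 A_23_P407583 at least 4.27-fold (adjusted p = 0.000129, 4.05e-06, 0.000116 and 7.54e-06). These limits hold for the background-subtracted signal. After normexp correction, which adds an offset of 50 to every signal, the log2 differences were 5.47, 2.02, 0.97 and 0.58, and PEG3 lost its call (adjusted p = 0.207). The H19 probes were 30.7-fold and 17.0-fold higher (adjusted p = 1.25e-05 and 7.60e-05). PLAGL1 was at least 5.15-fold lower (adjusted p = 0.00557).

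Smaller differences of 0.92 (MEG3 A_33_P3309501), 0.86 (CDKN1C) and 0.81 (MEST) were called higher, but each turned negative under scaling by the spike-in probes (-0.82, -0.88 and -0.93). That scaling put the median of all probes at -1.73, against 0.01, and turned the split of all calls from 6544 higher and 6722 lower into 1796 and 21615. After normexp correction the split was 3263 and 6602. Relative to all other probes these 3 therefore lay above the median under either scaling, and whether their RNA rose per cell cannot be read from the arrays. IGF2, both H19 probes, PEG10, PEG3 A_23_P407583 and SNRPN were called higher under the 75th percentile and spike-in scalings, and PLAGL1 lower. MEG3 A_32_P40547 and DLK1, with 0.06 and -0.05 and no call, were called lower under spike-in scaling (-1.68 and -1.79). The last MEG3 probe, with 2.94 (2.19 without siCONT replicate 1 and 3.70 without replicate 2), lost its call under spike-in scaling (adjusted p = 0.0801). Without siCONT replicate 1 or 2, CDKN1C (adjusted p = 0.0984 and 0.0993) and MEG3 A_33_P3309501 (0.0786 and 0.0623) lost their calls. Without siCONT replicate 1, MEST lost its call (0.0639), and CDKN1C also lost its own without siCONT + TSA replicate 1 or 2 (0.0608 each). Of the 6 member probes above background on no siRNA array, 3 were above it with 5-aza-dC, against 10.2% of 24148 such probes on the whole array.

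**Figure D5:**
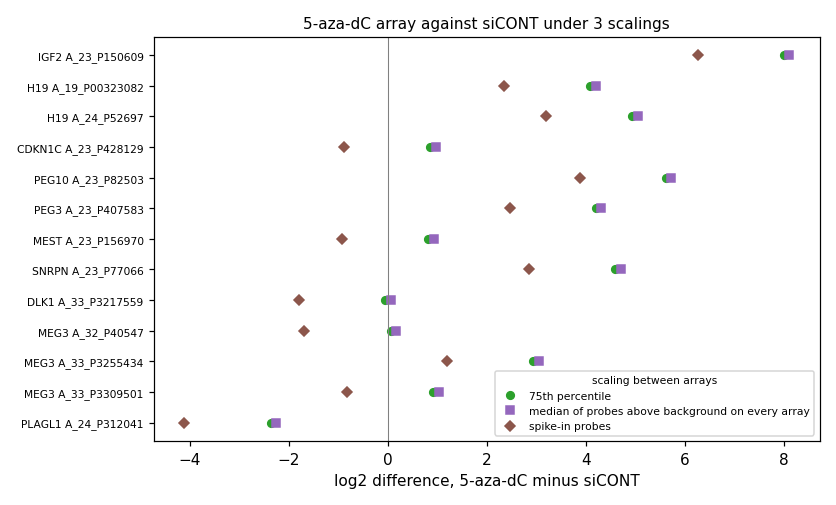
Log2 difference of the 5-aza-dC array minus siCONT (x axis) for the 13 tested member probes under 3 scalings between arrays. All points move left by nearly the same amount under spike-in scaling, which carries CDKN1C, MEST and MEG3 A_33_P3309501 from above 0 to below 0 and leaves IGF2, H19, PEG10, PEG3 and SNRPN above 0. For probes below background in siCONT the plotted value is the measured difference and not a bound.

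Other imprinted genes were read from lists ordered by the copy they are expressed from. Among 19 tested probes of paternally expressed genes, 2 were higher and 4 lower in siUHRF1 + TSA against siCONT, with a median of -0.23. Over all tested probes 15% were higher and 8.24% lower. Those of largest difference were 2 transcripts of the Prader-Willi domain, MAGEL2 (at least 1.75-fold higher) and IPW (at least 1.54-fold at 1 of its 2 tested probes of 11, with -0.54 and adjusted p = 0.552 at the other), and L3MBTL1, a chromatin reader, which was at least 2.25-fold lower at probe A_23_P210445 and fell by 1.04 on the log2 scale at A_23_P501961, with no call at its other 2 probes. INPP5F fell by 0.65 at 1 of 3 probes and ZDBF2 fell by 0.58. Among 16 tested probes of maternally expressed genes 4 were higher and 3 lower, with a median of -0.11, led by TFPI2, a protease inhibitor (at least 4.29-fold), NLRP2 (at least 1.63-fold) and CPA4, a carboxypeptidase (log2 difference 2.39). MAGEL2 and TFPI2 entered the test only through siUHRF1 + TSA, and the called IPW probe only through the depleted groups. They could hardly come out lower, which tilts the counts of higher probes upward. L3MBTL1 A_23_P210445 entered only through the groups without TSA and could hardly come out higher. After normexp correction the paternal list had 0 calls and the maternal list 2 higher and 1 lower. GRB10, an adaptor that restrains insulin and IGF signalling, fell by 0.72 at 1 of 2 probes, and UBE3A, a ubiquitin ligase, fell by 0.51 at 1 of 2 probes (adjusted p = 0.0469). TFPI2 and NLRP2 were also the ones called under TSA against siCONT + TSA (at least 3.79-fold and 1.44-fold). Neither list held a probe called in depletion alone. With 5-aza-dC, under the 75th percentile scaling, the lists gave 18 higher and 7 lower of 30 paternal probes and 4 higher and 8 lower of 17 maternal ones, against 24.1% and 24.8% of all tested probes. Spike-in scaling turned these into 12 and 11, and 2 and 13. Probes that entered through the 5-aza-dC array alone are among them.

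Of the genes that keep imprints (14, among them ZFP57, TRIM28 and the DNA methyltransferases), 11 probes were tested, and the only call in siUHRF1 + TSA against siCONT was 1 of 3 probes for DNMT3A, higher by 0.70 (adjusted p = 0.0359). Over all tested probes 15% were higher and 8.24% lower in that comparison. With 5-aza-dC, 7 of 16 tested probes of this list were higher and 1 lower, or 3 and 10 under spike-in scaling. Of all tested probes 24.1% were higher and 24.8% lower with 5-aza-dC, and under spike-in scaling 1796 were higher and 21615 lower. Of the receptors, substrates and binding proteins through which IGF2 acts, 11 probes were tested. The insulin receptor INSR fell by 1.31 in the combination against siCONT (adjusted p = 0.0203), where none was called higher, and none was called in depletion alone. With 5-aza-dC 4 of 15 were higher and 7 lower, or 2 and 10 under spike-in scaling, beside the same shares of all tested probes. In both lists, the probes tested with 5-aza-dC include some that entered through that array alone and could hardly come out lower. The type 1 receptor IGF1R gave 0.31 (adjusted p = 0.134) and the clearance receptor IGF2R -0.29 (adjusted p = 0.222).

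The genes whose pattern over the 9 arrays was most like that of IGF2, among 13347 with a RefSeq symbol, were KLK8, MFNG, FAM9B, RADIL and TRPM2 (Pearson r 0.996 to 0.991, and 0.997 to 0.988 without the 5-aza-dC array). For H19 they were BMP2, ZSCAN18, MAGEA2B, IFFO1 and SLC25A38 (r 0.993 to 0.987, and 0.988 to 0.973). The H19 probes themselves had r of 0.94 and 0.94 with IGF2 over the 9 arrays. The arrays form groups of 2, and these r values describe the shared order of the groups.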

How the data were processed

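RNA of RKO cells was hybridised to 9 one-colour Agilent arrays, scanned and read with Feature Extraction 10.7.3.1. The authors deposited each array's background-subtracted processed signal, a fluorescence intensity on a linear scale that is not scaled between arrays, and a table that holds the same signals in rounded form, used here as an alternative. Spots of a probe were averaged after control and outlier spots were left out, and log2 signals were set relative to each array's 75th percentile. A probe entered the test where both arrays of some siRNA group, or for its own comparison the 5-aza-dC array, were well above background. The test was limma 3.58.1 (two-sided, lmFit then eBayes, run under R 4.3.3) with Benjamini-Hochberg adjustment over all tested probes, at 0.05. The siRNA comparisons used the 8 siRNA arrays in 4 groups, and the 5-aza-dC comparison all 9 arrays. The scripts were tested on simulated data.

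The members and lists were chosen with earlier results of these data known. Every member probe is named, with the genes called in the combination, at most 5 per list by size, and the 5 genes most like IGF2 and like H19. The comparison of siUHRF1 + TSA with siUHRF1 was chosen after seeing the data. The number of arrays, 2 or 1 per group, limits the precision. Alternatives were normexp correction with an offset of 50 (applied to mean and background signals), quantile, median and spike-in scaling, other filters, other priors, the methods' t-test, a replicate block and leaving out each array.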

Additional observations from a re-analysis of the deposited data

How the results depend on the processing

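Of 569 values of the 28 called member differences under the alternatives, 473 kept direction and call, 93 lost the call and 3 reversed. The 3 were MEST (-0.93), CDKN1C (-0.88) and MEG3 A_33_P3309501 (-0.82) with 5-aza-dC under spike-in scaling. Of 944 values of the 45 uncalled differences, 909 remained uncalled, 34 became called and 1 was called in the opposite direction. Both tallies include the settings at an unadjusted p, which ease calling. With those settings left out of the uncalled tally, 847 of 866 values remained uncalled. For depletion alone, 2 member probes were called, and 0 after normexp correction, with only the compared arrays, or by the methods' t-test after adjustment, 1 without a filter or when only probes above background on every array were kept, 3 under quantile or spike-in scaling, with a trended and robust prior or at an unadjusted p, and 0 to 2 with 1 array left out. For TSA alone, 1 was called, and 0 after normexp correction, quantile or spike-in scaling, with no filter, with the strict filter or with the replicate block, 2 with a trended and robust prior, 3 by the methods' t-test unadjusted, 4 with only the compared arrays or at an unadjusted p below 0.05, and 0 to 2 with 1 array left out. For the combination against siCONT, 5 were called, 3 under the strict filter, 1 by the adjusted t-test and 4 to 5 with 1 array left out. For depletion under TSA, 4 were called, 2 after normexp correction or under the strict filter, 0 by the adjusted t-test and 3 to 4 with 1 array left out. For the difference between effects, 0 were called, 1 under spike-in scaling (IGF2, adjusted p = 0.0244), 4 at an unadjusted p and 0 to 1 with 1 array left out. For 5-aza-dC, 11 were called, 5 under the strict filter and 8 to 11 with 1 array left out. For TSA in depleted cells, 5 were called, 3 after normexp correction or under either filter, 2 with only the compared arrays, 0 by the adjusted t-test and 2 to 6 with 1 array left out. These counts pool higher and lower calls. For TSA alone the main call was lower, whereas the methods' t-test after adjustment had 1 higher and 0 lower. With only the compared arrays TSA alone had 2 higher and 2 lower, and the combination 4 higher and 1 lower. At an unadjusted limma p TSA alone had 1 higher and 3 lower. The cause of these changes was not tested, except that the strict filter leaves fewer probes to test.

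Replicate numbers did not pair all arrays: the replicate differences with and without TSA correlated at r = 0.47 for siUHRF1 and 0.08 for siCONT. With the replicate block, PLAGL1 under TSA (adjusted p = 0.0648) and MEG3 A_33_P3255434 for depletion under TSA (0.0531) lost their calls. Over all probes, normexp correction left 7 higher and 2 lower calls for depletion alone, 206 and 215 for TSA alone, 85 and 7 for depletion under TSA, and 6 and 0 for the difference between effects. Signals near 12.9 to 15.1 lie at the detection limit, where IGF2, MEG3 A_33_P3255434 and PLAGL1 sat in some groups.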
